A study of Mus musculus with 8 samples.

Results

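The genes described here encode the nuclear subunits of the 5 enzyme complexes of oxidative phosphorylation. They were taken from the array by name, as every probe set whose only gene symbol began with Nduf, Uqcr, Atp5 or Cox4 to Cox8, or was Sdha, Sdhb, Sdhc, Sdhd or Cyc1. This gave 100 probe sets of 72 genes, out of 12422 probe sets for genes, which name 8251 genes by a single symbol. Complex I held 42 probe sets of 31 genes, complex II 4 of 4, complex III 9 of 8, complex IV 23 of 15 and complex V 22 of 14. Another 10 probe sets with such a symbol carried several symbols and were left out. The names bring in 3 genes whose products are not structural subunits of the complexes: Ndufaf1 and Ndufaf4, assembly factors of complex I, and Cox7a2l, which joins complexes into supercomplexes.

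Each of 8 arrays held total RNA from mouse double positive thymocytes, immature T cells that bear the CD4 and CD8 coreceptors together and carry a newly made T cell receptor. The series concerned engagement of that receptor with antibodies, and the titles name 4 groups of 2 arrays: control, overnight control, Valpha2 and Vbeta5, the last pair named after variable segments of the receptor's alpha and beta chains. Each group has an array numbered 1 and an array numbered 2. The sources used here do not give strain, genotype, age, antibody clone, dose or time, nor what separates the control from the overnight control beyond its name. The labels do not say whether the arrays of a group came from separate animals or cultures, so a p-value here reflects the spread of these arrays alone, which may be technical.

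Oxidative phosphorylation takes place in the inner mitochondrial membrane. Complexes I and II take electrons from NADH and succinate, complex III passes them from ubiquinol to cytochrome c, and complex IV hands them to oxygen. Complexes I, III and IV pump protons across the membrane, and complex V, the ATP synthase, uses the proton gradient to make ATP. Most subunits are encoded in the nucleus, and the catalytic centres of complexes I, III and IV also need subunits encoded in mitochondrial DNA. None of the latter was found on this array by symbol. Resting thymocytes are small cells, and T cells raise both glycolysis and respiration when they are activated. Many of the nuclear genes share promoter sites for NRF1, for Ets family factors such as GABP (also called NRF2) and for YY1.

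Promoter sequences were available in a RefSeq table of the mouse assembly GRCm38.p6 for 58 of the 72 genes, as 63 windows from 250 bases before to 50 bases after an annotated start. Each window was searched on both strands. The NRF1 motif GCGCATGCG was found in 8 of the 63 windows (12.7%), against 1.75% of all 32851 windows in the table. The Ets core CCGGAAG was in 16 (25.4%, against 8.86% of all), and the YY1 motif AAGATGGCG was in 5 (7.94%, against 1.4%). The GC box GGGCGG was in 29 (46%, against 35.7%) and TATAAA in 7 (11.1%, against 13.6%). All windows in the table include those of every kind of gene, and windows of 1 gene can overlap. The NRF1 motif lay in the windows of Atp5g2, Atp5k, Atp5l, Cox6a1, Ndufa8, Ndufaf4, Uqcr11 and Uqcrc1, in Uqcr11 across the start itself. The YY1 motif lay after the start in Atp5j2, Ndufa9, Ndufc1 and Ndufs4 and before it in Atp5j. A match is a run of letters in this window and no evidence of binding.

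The 250 bases before the start are shown for 4 members. Ndufb2, Ndufb8 and Uqcr11 had a window and were picked from these same data. Each had the smallest p or the largest difference of the members in a comparison below, and none was called in those 4 comparisons. Cox6a1 is shown because it held the NRF1 and the Ets motif together. Matches to both motifs also lay in the windows of Atp5k, Atp5l and Uqcr11. Each is read 5′ to 3′ on the gene's own strand, and the capitals mark matches to a motif above or to its reverse complement.
Ndufb2, chr6:39592315-39592564, plus strand: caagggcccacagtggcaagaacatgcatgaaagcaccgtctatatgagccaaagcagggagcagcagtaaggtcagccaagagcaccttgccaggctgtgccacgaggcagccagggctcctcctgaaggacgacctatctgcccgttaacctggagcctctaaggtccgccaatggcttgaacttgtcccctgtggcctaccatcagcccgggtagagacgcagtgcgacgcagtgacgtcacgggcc
Ndufb8, chr19:44555443-44555692, minus strand: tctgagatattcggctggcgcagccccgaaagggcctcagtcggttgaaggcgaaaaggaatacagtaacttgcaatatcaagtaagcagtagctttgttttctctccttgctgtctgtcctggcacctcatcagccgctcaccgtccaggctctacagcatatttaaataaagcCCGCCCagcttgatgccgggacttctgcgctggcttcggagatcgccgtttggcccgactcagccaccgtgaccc
Uqcr11, chr10:80406822-80407071, minus strand: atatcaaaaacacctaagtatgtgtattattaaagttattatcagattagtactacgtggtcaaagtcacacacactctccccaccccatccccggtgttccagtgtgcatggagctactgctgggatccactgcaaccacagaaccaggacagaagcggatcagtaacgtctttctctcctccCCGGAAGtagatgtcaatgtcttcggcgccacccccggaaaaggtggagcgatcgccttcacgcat
Cox6a1, chr5:115348959-115349208, minus strand: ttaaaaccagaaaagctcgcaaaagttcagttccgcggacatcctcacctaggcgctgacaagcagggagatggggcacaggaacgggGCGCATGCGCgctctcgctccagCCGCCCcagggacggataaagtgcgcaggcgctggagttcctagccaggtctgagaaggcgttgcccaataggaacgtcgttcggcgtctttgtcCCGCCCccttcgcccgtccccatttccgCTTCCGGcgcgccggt
The stretch before Ndufb2 held none of the 5 motifs, Ndufb8 held a GC box, Uqcr11 the Ets core (its NRF1 match runs past the last base shown), and Cox6a1 the NRF1 motif, GC boxes and an Ets core near the start.

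The deposited values are linear signals that were normalized before deposit. They were compared here as log2(signal + 17) with limma, in 1 fit of all 8 arrays. An adjusted p is limma's p after Benjamini-Hochberg adjustment over all 8282 tested probe sets in that comparison, and a call is an adjusted p under 0.05. The dimmest 33.3% of probe sets were not tested. This left 81 members of 67 genes. A difference is given on the log2 scale with the standard error (SE) of the fit and is smaller than the true change where signals are low. A signal below is written for array 1 and then array 2 of each group, and signals of different probe sets were not compared as levels of their genes. In bulk RNA, fewer cells of a type and less RNA per cell cannot be told apart.

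The arrays differed in ways that bear on the members. For the Gapdh controls on the array, the ratio of the 3′ probe set over the 5′ one, a measure of RNA integrity, was 1.72 (log2) on array 1 of Valpha2, 0.95 on array 1 of the overnight control, 0.48 on array 1 of Vbeta5, and between -0.28 and -0.09 on the other 5. Across tested probe sets, replicate arrays were least alike in the overnight control (r = 0.867) and most alike in the control (r = 0.955). The median signal over all genes ranged from 73.8 to 110.35, and the highest was on overnight control array 1. The summed signal of the 8 double positive thymocyte markers on the array (Cd4, Cd8a, Cd8b1, Cd3e, Rag1, Rag2, Dntt, Ptcra) was 39731.5 to 45006 in control, 52899 to 56424 in overnight control, 44295 to 56217 in Valpha2 and 13813 to 25970.5 in Vbeta5, so the Vbeta5 arrays were below all others. The part of these differences in the results below was not tested, except where a value without an array or with the ratio as a covariate is given.

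No member passed the threshold in any of the 4 comparisons. By limma 0 of 81 tested members were called for Vbeta5 against overnight control, where 0.616% of all tested probe sets were called (51). The count was 0 of 81 for Valpha2 against overnight control, where 0% of all were called, 0 of 81 for Vbeta5 against Valpha2 (0.278% of all) and 0 of 81 for overnight control against control (0.181% of all). With call shares this low, a set of 81 would hold few calls at the background rate. At an unadjusted limma p under 0.05 the members numbered 4, 2, 0 and 9 in the same order, that is, 4 of 81 where 8.49% of all tested passed, 2 of 81 where 1.62% did, 0 of 81 where 8.19% did and 9 of 81 where 9% did. With 2 arrays a side the smallest p of an exact permutation test is 0.333, so none was run.

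The fit gave an interval for each difference, which reflects the spread of these arrays alone. The 95% interval of the difference lay within 1 log2 unit of no difference, that is, within 2-fold either way, for 48 of the 81 members for Vbeta5 against overnight control (59.3%, against 35.9% of all tested). For Valpha2 against overnight control it did so for 52 (64.2%, against 43.4%), for Vbeta5 against Valpha2 for 52 (64.2%, against 33.8%) and for overnight control against control for 44 (54.3%, against 33.6%). The median SE was 0.27 for the members and 0.38 for all tested. The median SD of a member over the 8 arrays was 0.27 log2 units, against 0.40 for all tested probe sets, and within groups 0.24 against 0.36. By complex the median SD over the arrays was 0.20 for complex II, 0.26 for complex III, 0.26 for complex I, 0.32 for complex V and 0.36 for complex IV. Of the 81, 39.5% were among the brightest 10% of probe sets tested. The median of the mean signals was 810 for the members and 199 for all tested. The shares, SEs and SDs above were not compared at like brightness.

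**Figure D1:**
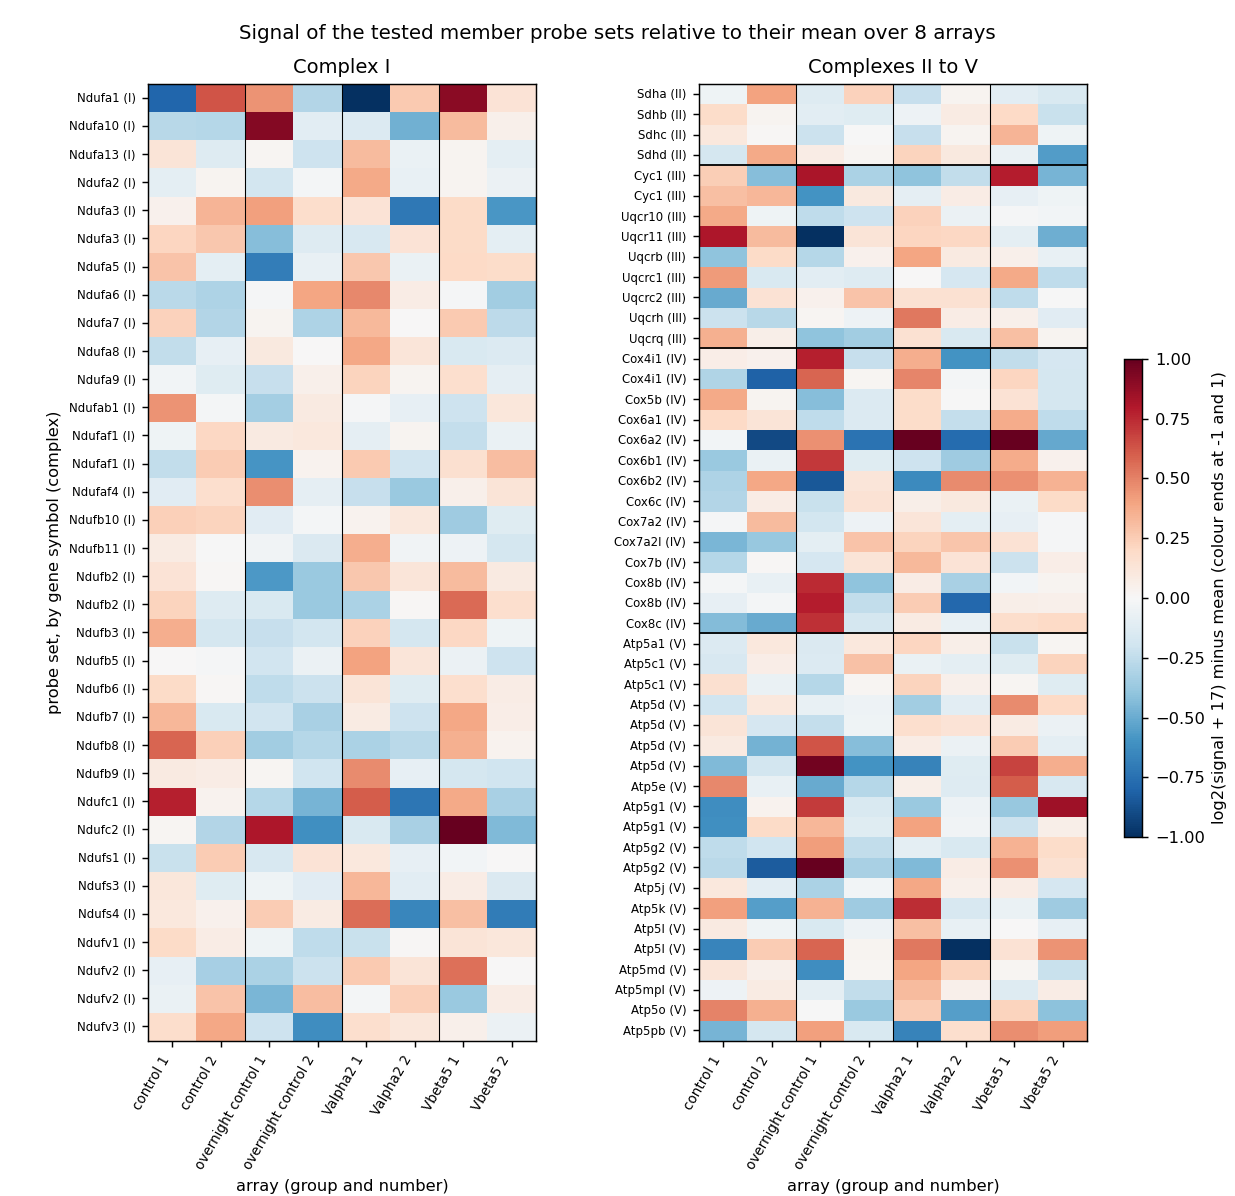
Deviation of each of the 81 tested member probe sets (rows, by symbol and complex) from its mean over the 8 arrays (columns), in log2(signal + 17), with the colour scale ending at -1 and 1. Overnight control array 1 has dark cells in both colours: red for probe sets such as Cox8c and Atp5g2, blue for Uqcr11, Ndufb2 and Ndufa5.

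The map of deviations shows 1 array that stood apart in both directions. Of the 49 members with a mean signal above 500, a limit chosen after the values were seen, 21 were lowest on overnight control array 1 (42.9%), against 24.4% of the 2017 probe sets of that brightness over all genes. Of the 32 members under that limit, 14 were highest on the same array (43.8%, against 32.2% of 6265). Valpha2 array 1 was the highest for 18 of the 49 brighter members (36.7%, against 18.3% of all). Both arrays are among the 3 with a raised Gapdh ratio. These shares bear on every comparison with the overnight control, so each is also given within the array numbers or without these arrays.

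The overnight control was compared with the control. Among the 81 members 28 had both overnight control signals below both control signals (34.6%), against 16.3% of all tested, and 8 had them above (9.88%, against 21.6%). The median difference of the members was -0.07, while that of all tested probe sets was 0.10. It was -0.13 for complex I, -0.15 for complex II and -0.25 for complex III, but 0.22 for complex IV and 0.03 for complex V. With 1 array left out it ranged from -0.18 to -0.11 for complex I, -0.24 to -0.06 for complex II, -0.54 to -0.18 for complex III, 0.08 to 0.52 for complex IV and -0.06 to 0.07 for complex V. Complex IV had 0.42 within array number 1 and -0.11 within number 2. Complex I gave 14 of 34 lower without overlap, complex III 4 of 9, complex II 2 of 4, complex V 5 of 20 and complex IV 3 of 14. After quantile normalization these counts were 7 (20.6% of complex I, against 18.3% of all tested), 4, 0, 3 and 2. At a common median they were 14 (41.2% of complex I, against 21.9% of all tested), 4, 1, 3 and 3. The 49 brighter members had a median of -0.18, with 41 below 0, and the 32 dimmer ones a median of 0.23, with 24 above 0. Over all genes the same limit gave -0.05 and 0.16. Within array number 1 the brighter members had a median of -0.29 and the dimmer ones 0.63, and within number 2 they had -0.08 and -0.16, so the dimmer members differed in sign between the numbers. The count of lower members depends on scaling: it was 16 of 81 (19.8%, against 18.3% of all) after quantile normalization and 25 (30.9%, against 21.9%) at a common median, which moved the median of all tested probe sets to -0.13 and that of the members to -0.30. Some marker levels of other cells differed too. The summed signal of 4 B cell markers was 702 to 844 in overnight control and 316 to 461 in control. That of 5 macrophage and monocyte markers was 379.6 to 737 against 293 to 317. The summed erythroid, thymic epithelium, granulocyte and muscle markers overlapped between the groups. The B cell and the macrophage and monocyte values need care. These are sums of dim probe sets. Their medians over all arrays were 63.2 to 236.4 for the B cell markers and 7.8 to 207.9 for the macrophage and monocyte ones. The dimmest, Lyz2, lay between 2.4 and 11.6, and the brightest of its list was Cd14. The thymocyte markers were also higher in overnight control on both arrays, as given above. The part of these markers in the result was not tested.

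Both antibody groups were compared with the same overnight control arrays, and those arrays are also in the comparison above, so the 3 sets of values are not independent. For Valpha2 against overnight control, 25 of 81 members were higher without overlap (30.9%, against 10.5% of all tested) and 6 lower (7.41%, against 10.2%). The median was 0.16 for the members and -0.02 for all tested. It was 0.20 for complex I, 0.06 for complex II, 0.32 for complex III, 0.12 for complex IV and 0.06 for complex V. With 1 array left out it ranged from 0.05 to 0.34 for complex I, -0.03 to 0.10 for complex II, 0.08 to 0.46 for complex III, -0.18 to 0.11 for complex IV and -0.10 to 0.27 for complex V, so that the sign turned for complexes II, IV and V. Of the 49 brighter members 46 were above 0 (93.9%, against 64% of all of that brightness), and of the 32 dimmer ones 10 were (31.2%, against 41.6%). Within array number 1 the brighter members had a median of 0.38, with 45 above 0. Within number 2 they had 0.05, with 32 above 0. The dimmer members had -0.28 within number 1 and 0.08 within number 2, so they differed in sign between the numbers. The median of the members was 0.30 within array number 1, where both arrays had a raised Gapdh ratio, and 0.07 within number 2, and it was 0.04 without Valpha2 array 1. After quantile normalization 18 members were higher without overlap (22.2%, against 11.8%).

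For Vbeta5 against overnight control, 18 of 81 members were higher without overlap (22.2%, against 15.9% of all tested) and 6 lower (7.41%, against 15.2%). The median was 0.08 for the members and -0.01 for all tested. The lower count was 10 (12.3%, against 16.3%) after quantile normalization and 1 (1.23%, against 12.7%) at a common median. Of the 18 that were higher, complex I held 12 (35.3% of its 34), complex V 3 of its 20, complex III 2 of its 9 and complex IV 1 of its 14. The higher count was 17 (21%, against 16.3%) after quantile normalization, with 11 in complex I. At a common median it was 15 (18.5%, against 14.3%), with 9 in complex I. The median of the members was 0.14 within array number 1 and 0.03 within number 2, and 0.0018 without the 3 arrays of raised Gapdh ratio, where that of all tested was 0.06. The 49 brighter members had a median of 0.23 within number 1, with 39 above 0, and -0.04 within number 2, with 20 above 0. The 32 dimmer ones had -0.26 and 0.22, so both parts differed in sign between the numbers. Over all genes the same limit gave 0.08 and -0.04 for the brighter probe sets and -0.18 and 0.10 for the dimmer ones. In this comparison the double positive thymocyte markers were lower in summed signal in Vbeta5 on both arrays, as given above, and so were the B cell markers, at 363 to 393.

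For Vbeta5 against Valpha2, which does not use the overnight control arrays, 12 of 81 members were higher without overlap (14.8%, against 21.8% of all tested) and 18 lower (22.2%, against 18.6%). After quantile normalization 13 were higher (16%, against 19.6%) and 19 lower (23.5%, against 20.5%). At a common median 10 were higher (12.3%, against 17.3%) and 28 lower (34.6%, against 22.9%). As deposited, the median was -0.02 for the members and 0.02 for all tested. For the members it was -0.00025 after quantile normalization and -0.08 at a common median. Medians by complex lay between -0.11 for complex III and 0.06 for complex V. With 1 array left out the median of the members ranged from -0.15 to 0.07, that of complex III from -0.25 to -0.10 and that of complex V from -0.19 to 0.14; the sign also turned for complexes I, II and IV. Within the numbers the median of the members was -0.08 and -0.03. Here too the summed thymocyte and B cell markers were lower in Vbeta5 on both arrays, and the macrophage and monocyte markers were higher, at 495 to 641 against 298 to 409.7 in Valpha2. Their part in these values was not tested.

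**Figure D2:**
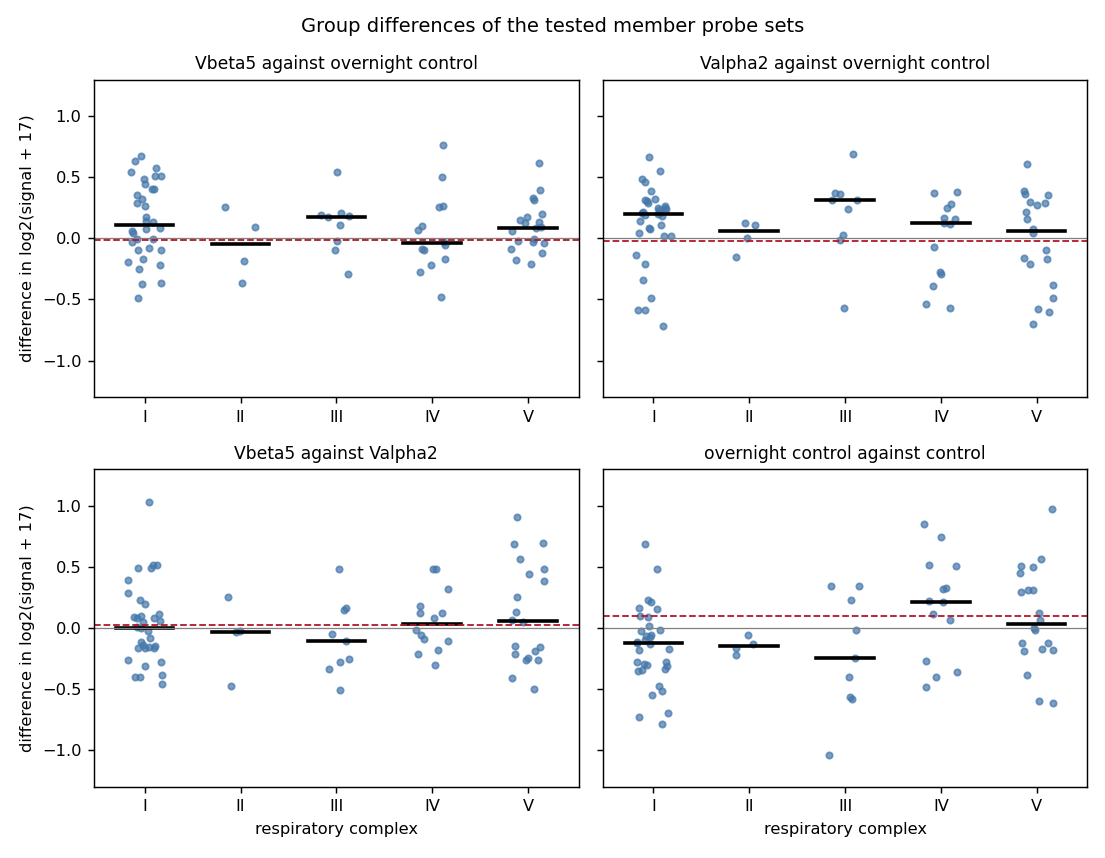
Difference in log2(signal + 17) of each tested member probe set (points), by complex, in the 4 comparisons. Black bars are the median of the complex, the dashed line is the median of all 8282 tested probe sets and the grey line is no difference; most points lie within 1 log2 unit, and the bar of complex III lies highest for Valpha2 against overnight control (0.32) and lowest for overnight control against control (-0.25).

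The plot of differences by complex shows how the members spread around these medians. The share of dim members differed between complexes: 8 of 14 members of complex IV and 11 of 20 of complex V lay under a mean signal of 500, against 11 of 34 in complex I, 1 of 9 in complex III and 1 of 4 in complex II.

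In complex I, the core subunits carry the flavin and the iron-sulphur clusters that take electrons from NADH. Ndufv1, which binds NADH and the flavin, had signals of 2141 and 1965 in control, 1816 and 1563 in overnight control, 1596 and 1889 in Valpha2, and 2049 and 2019.6 in Vbeta5. The overnight control arrays were the lower pair against control and against Vbeta5, and the difference was -0.28 ± 0.20 for overnight control against control. Ndufs1, the largest iron-sulphur subunit, had 488 and 686 in control, 513 and 631.5 in overnight control, 618 and 541 in Valpha2, and 563 and 575 in Vbeta5, with overlap between all groups. Ndufs3 lay between 883 and 1235 on the 8 arrays, and its differences were between -0.15 and 0.19. Ndufv2 was read by a bright probe set (776 to 1330) and a dim one (75.2 to 153), and only the dim one was higher without overlap in both antibody groups, by 0.54 ± 0.38 in Vbeta5 and 0.46 ± 0.38 in Valpha2. All 5 core probe sets had a difference below 0 for overnight control against control, between -0.28 and -0.02, and 1 of the 5 was lower without overlap, where 16.3% of all tested probe sets were.

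The accessory subunits of complex I surround this core and are needed for its assembly and stability. Ndufb2, a small subunit of the membrane arm, had the smallest p of all members in each comparison of an antibody group with the overnight control. Its probe set 95131_f_at had signals of 1474 and 1348.5 in control, 894 and 1034 in overnight control, 1621 and 1453 in Valpha2, and 1668 and 1424.5 in Vbeta5. The overnight control arrays were the lowest of the 8, and the 3 other groups overlapped. The difference was 0.67 ± 0.21 for Vbeta5 against overnight control (95% interval 0.21 to 1.14, limma adjusted p = 0.285), 0.67 ± 0.21 for Valpha2 against overnight control (adjusted p = 1) and -0.54 ± 0.21 for overnight control against control (adjusted p = 0.49). The other tested probe set of Ndufb2, 95132_r_at, had 1598.5 and 1243.5 in control, 1225 and 1049.9 in overnight control, 1092 and 1377 in Valpha2, and 2029 and 1538.5 in Vbeta5. Vbeta5 was above overnight control on both arrays, by 0.63 ± 0.24, and above Valpha2, and its Valpha2 arrays overlapped those of the overnight control. Without the 3 arrays of raised Gapdh ratio the difference of 95131_f_at was 0.46 for Vbeta5 and 0.48 for Valpha2.

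Ndufb8, another subunit of the membrane arm, commonly used as a marker of assembled complex I, had signals of 1109 and 871.5 in control, 575 and 601 in overnight control, 586 and 607 in Valpha2, and 947 and 756 in Vbeta5. Both overnight control and Valpha2 were below both control and Vbeta5, without overlap. The difference was -0.73 ± 0.23 for overnight control against control (95% interval -1.24 to -0.21, limma adjusted p = 0.346), 0.51 ± 0.23 for Vbeta5 against overnight control, 0.49 ± 0.23 for Vbeta5 against Valpha2 and 0.02 ± 0.23 for Valpha2 against overnight control. It was the smallest p of any member for overnight control against control. Ndufv3, a small subunit beside the flavin site, had 263.5 and 309 in control, 199 and 145 in overnight control, 262 and 252 in Valpha2, and 241 and 221 in Vbeta5, with the overnight control lowest of the 8 arrays and a difference of -0.69 ± 0.29 from control. Ndufc1 had 894 and 526 in control, 418 and 366.5 in overnight control, 791 and 305 in Valpha2, and 671 and 407 in Vbeta5. Its difference of -0.78 ± 0.43 from control was the largest of complex I in that direction, and array 1 was above array 2 in every group.

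Other accessory subunits had other patterns. Ndufa6, which binds the acyl carrier protein subunit, had 366 and 356 in control, 442 and 589 in overnight control, 626 and 470 in Valpha2, and 442 and 346 in Vbeta5, so that control was below both overnight control and Valpha2, by 0.48 ± 0.27 for the former. Ndufa8 had 498 and 559 in control, 634.5 and 596 in overnight control, 782 and 647.5 in Valpha2, and 533 and 537 in Vbeta5, with Valpha2 the highest pair of the 8 and a difference of -0.40 ± 0.22 for Vbeta5 against Valpha2. Ndufa10 had 161 and 160.1 in control, 392 and 184 in overnight control, 179.5 and 138 in Valpha2, and 252 and 207.5 in Vbeta5. Its difference of 0.69 ± 0.37 from control rested mainly on overnight control array 1: without that array it was 0.18. Ndufb5 had 3551 and 3496 in control, 3085 and 3393 in overnight control, 4682 and 3845 in Valpha2, and 3384 and 3059.5 in Vbeta5, with Valpha2 again the highest pair and 0.39 ± 0.20 over overnight control. Ndufa5 had 1115 and 852 in control, 560.4 and 865 in overnight control, 1106 and 870.5 in Valpha2, and 1052.5 and 1039 in Vbeta5, with both antibody groups above the overnight control, by 0.57 ± 0.27 and 0.48 ± 0.27, and array 1 of the overnight control the lowest of all. Ndufab1, the mitochondrial acyl carrier protein, lay between 398 and 703, with overlap in every comparison. Ndufa1 was dim (26.2 to 180.1), and its difference of 1.03 ± 0.63 for Vbeta5 against Valpha2, the largest of any member in that comparison, turned to -0.13 without the 3 arrays of raised Gapdh ratio.

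Complex II oxidises succinate to fumarate, is also an enzyme of the citric acid cycle and has no subunit from mitochondrial DNA. All 4 of its genes were tested, each by 1 probe set. Sdhb, the iron-sulphur subunit, had 1376 and 1234 in control, 1124 and 1113 in overnight control, 1164.5 and 1281 in Valpha2, and 1391.5 and 1031 in Vbeta5, with overnight control below both control and Valpha2; the difference was -0.22 ± 0.22 for overnight control against control and 0.13 ± 0.22 for Valpha2 against overnight control. Sdhc, a membrane anchor, had 1175 and 1104 in control, 940.4 and 1092 in overnight control, 929 and 1110.4 in Valpha2, and 1386 and 1060 in Vbeta5. Its Vbeta5 array 1 was the highest of the 8, and the difference of 0.25 ± 0.23 from overnight control was -0.04 without the 3 arrays of raised Gapdh ratio. Sdhd, the other anchor, had 781 and 1157 in control, 934 and 896 in overnight control, 1033 and 949 in Valpha2, and 842.5 and 595 in Vbeta5, with Vbeta5 below overnight control (-0.36 ± 0.26) and below Valpha2 (-0.47 ± 0.26) on both arrays. Sdha, the flavin subunit, lay between 111 and 181, with overlap in every comparison. The 4 differences for overnight control against control lay between -0.22 and -0.05.

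Complex III holds 2 core subunits that face the matrix, the haem protein cytochrome c1 (Cyc1), and small supernumerary subunits. The 5 supernumerary members were higher in Valpha2 than in overnight control without overlap in 5 of 5, where 10.5% of all tested probe sets were, with a median difference of 0.37, while the core members Uqcrc1 and Uqcrc2 differed by 0.03 ± 0.27 and -0.01 ± 0.25. Of all 9 complex III members 5 were higher without overlap, and 4 were after quantile normalization and at a common median. Without the 3 arrays of raised Gapdh ratio the median of the 9 complex III members in this comparison was 0.07 in place of 0.32. Uqcrq had 2328 and 1891 in control, 1373 and 1421 in overnight control, 2022 and 1634 in Valpha2, and 2244 and 1854 in Vbeta5, with the overnight control lowest of the 8 and the other groups overlapping. Its difference was -0.58 ± 0.22 for overnight control against control and 0.54 ± 0.22 for Vbeta5 against overnight control, with limma adjusted p = 0.485 and 0.509.

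Uqcr11, a very small subunit, had 709 and 499 in control, 178 and 437.5 in overnight control, 465 and 461 in Valpha2, and 370 and 279 in Vbeta5. Overnight control array 1 was the lowest of the 8 and array 2 lay near the Valpha2 pair. The difference of -1.04 ± 0.38 from control was the largest of any member in that comparison (95% interval -1.88 to -0.20, limma adjusted p = 0.465). Left without array 1 of the overnight control it was -0.43, and without its array 2 it was -1.65. Each of these 2 fits left 1 array in the overnight control group. Uqcr10 had 1546 and 1145 in control, 991 and 1020.5 in overnight control, 1388 and 1137 in Valpha2, and 1171 and 1158 in Vbeta5, with the overnight control again the lowest pair and a difference of -0.40 ± 0.23 from control. Uqcrh, the acidic hinge protein that helps bind cytochrome c, had 2628 and 2507 in control, 3085 and 2942 in overnight control, 4396 and 3203 in Valpha2, and 3149.9 and 2809.8 in Vbeta5. It was highest in Valpha2 and lowest in control, by 0.23 ± 0.22 for overnight control against control. Uqcrb, near the quinone site, had 613 and 931 in control, 664 and 839 in overnight control, 1075 and 870.1 in Valpha2, and 847 and 771 in Vbeta5, with Valpha2 above overnight control and Vbeta5 on both arrays.

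Uqcrc2 had 877 and 1383 in control, 1288 and 1526.5 in overnight control, 1391 and 1389.8 in Valpha2, and 1049.7 and 1245.5 in Vbeta5, with Vbeta5 below overnight control and Valpha2 without overlap. Uqcrc1 had 2199.9 and 1470 in control, 1523 and 1498 in overnight control, 1637 and 1451 in Valpha2, and 2136 and 1369 in Vbeta5, and its groups overlapped in every comparison. Cyc1 was read by 2 tested probe sets that ran apart. The probe set 95072_at had 3435 and 3509 in control, 1835 and 2981 in overnight control, 2614 and 2932 in Valpha2, and 2632 and 2709 in Vbeta5, with control the highest pair and a difference of -0.57 ± 0.25 for overnight control against control. The probe set 162469_r_at had 1479.8 and 924 in control, 2207 and 999 in overnight control, 941 and 1049 in Valpha2, and 2155 and 899 in Vbeta5, with the 2 arrays of a group differing more than 2-fold in overnight control and Vbeta5, and its difference for the same comparison was 0.34 ± 0.44.

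**Figure D3:**
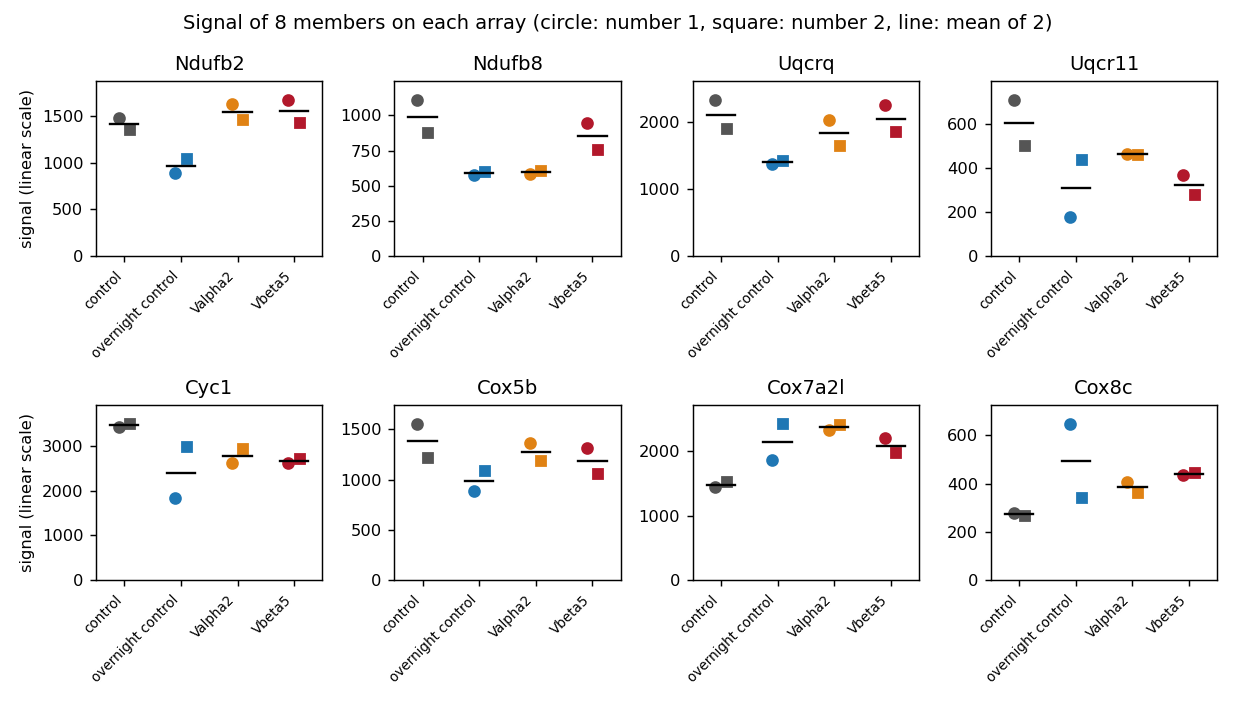
Deposited signal (linear scale, axis from 0) of 8 members on each array, by group: circles are array 1, squares array 2, and lines the mean of 2. Each panel plots 1 probe set (Ndufb2 95131_f_at, Cyc1 95072_at and Cox8c 100965_at where a gene has several). For Ndufb2, Uqcrq and Cox5b the overnight control arrays are the lowest pair or overlap only with 1 array of Vbeta5; for Cox7a2l the control arrays are the lowest.

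The plot of signals by group sets these members beside 3 of complex IV. Complex IV reduces oxygen at subunits encoded in mitochondrial DNA, and its nuclear subunits regulate and stabilise it, some with isoforms made in muscle or testis. Cox5b had 1558 and 1219 in control, 885.5 and 1082 in overnight control, 1359 and 1189 in Valpha2, and 1317 and 1055 in Vbeta5. Both overnight control arrays were below both control arrays, by -0.49 ± 0.23, and below both Valpha2 arrays. Cox6a1, the isoform found in most tissues, had 4151 and 3953 in control, 3027 and 3282 in overnight control, 4109 and 3053.5 in Valpha2, and 4664 and 3034 in Vbeta5, with control above overnight control and overlap otherwise. Cox6c lay between 2669 and 3736, and its groups overlapped in every comparison. Cox7a2, the general isoform of its subunit, had 1854 and 2325.5 in control, 1636 and 1802 in overnight control, 2031 and 1737 in Valpha2, and 1760.1 and 1851 in Vbeta5, with overnight control below control by -0.27 ± 0.21. Cox7b had 693.5 and 859 in control, 755 and 929 in overnight control, 1071 and 935 in Valpha2, and 731 and 892 in Vbeta5, with Valpha2 the highest pair. Cox4i1, the main form of a regulatory subunit, was read by 2 dim probe sets (90.3 to 261 and 54.3 to 170.1), and 93788_at differed by 0.85 ± 0.41 for overnight control against control, without overlap.

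Cox7a2l, the supercomplex factor, had 1441 and 1523 in control, 1856 and 2428 in overnight control, 2320.5 and 2412 in Valpha2, and 2201 and 1970.4 in Vbeta5. The 2 control arrays were the lowest of the 8, and the difference was 0.51 ± 0.21 for overnight control against control (limma adjusted p = 0.512). Differences among the other 3 groups lay between -0.18 and 0.16. Cox8c, an isoform known from testis, had 280.1 and 266 in control, 649 and 338.5 in overnight control, 409 and 363 in Valpha2, and 436 and 443 in Vbeta5, with the control arrays again the lowest and a difference of 0.75 ± 0.31 (adjusted p = 0.514). Overnight control array 1 was the highest, and the second probe set of Cox8c, 161475_f_at, was not tested and lay between 3.4 and 18.4. Cox6b2, the testis isoform of its subunit, had 136 and 231 in control, 88.3 and 189 in overnight control, 105 and 247 in Valpha2, and 243.5 and 225 in Vbeta5 on the probe set that was tested. Its difference of 0.77 ± 0.46 for Vbeta5 against overnight control was the largest of any member there, and array 2 was above array 1 in the 3 other groups.

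The muscle isoforms were dim. Cox6a2 had 51 and 20.1 in control, 78.3 and 24.7 in overnight control, 149 and 23.7 in Valpha2, and 147 and 31.6 in Vbeta5, so array 1 was above array 2 in every group, and its SD over the 8 arrays of 0.89 was the highest of the members. The 2 tested probe sets of Cox8b lay between 136.5 and 323 and between 14.3 and 76.1. Cox7a1 was not tested and lay between 2.4 and 50. The summed signal of 6 muscle markers was 134 to 168 in control, 162 to 382 in overnight control, 159.9 to 209 in Valpha2 and 191 to 248 in Vbeta5. Over the 8 arrays Myh6, Myh1 and Acta1 had medians of 6.3, 5.55 and 6.3, under the 17 that was added to each signal. The medians of Ckm, Myl1 and Tnnt3 were 82.4, 41.35 and 36.2.

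Complex V makes ATP in a catalytic head, which a turning central stalk drives from a ring of c subunits in the membrane while a peripheral stalk holds it still. Atp5a1, the alpha subunit of the head, had 3477.5 and 4101 in control, 3459.9 and 4107 in overnight control, 4437 and 3986 in Valpha2, and 3264 and 3862 in Vbeta5, and its difference for overnight control against control was -0.0026 ± 0.21. Atp5c1, the gamma subunit of the central stalk, lay between 1586 and 2176 on 1 probe set and between 2096 and 2991.5 on the other, and these had opposite signs in all 4 comparisons. Atp5e, the epsilon subunit, had 1136 and 768 in control, 566 and 662 in overnight control, 846 and 740.3 in Valpha2, and 1242 and 724 in Vbeta5. The overnight control was the lowest pair, by -0.60 ± 0.30 from control and 0.62 ± 0.30 from Vbeta5. Atp5d, the delta subunit, had 4 tested probe sets, of which 161145_f_at was highest in Vbeta5, with 212 and 266 in control, 233 and 237 in overnight control, 189 and 228 in Valpha2, and 348 and 285 in Vbeta5. Its difference was 0.56 ± 0.28 for Vbeta5 against Valpha2, and over the 4 probe sets that comparison ran from -0.14 to 0.91.

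The peripheral stalk had 3 tested members. Atp5o, its oligomycin sensitivity subunit, had 1485 and 1345 in control, 1046 and 808 in overnight control, 1256 and 712 in Valpha2, and 1222 and 784 in Vbeta5, with control the highest pair and a difference of -0.61 ± 0.31 for overnight control against control. Array 1 was above array 2 in every group. Atp5j had 1283 and 1109 in control, 956 and 1168 in overnight control, 1566 and 1235 in Valpha2, and 1258 and 1062 in Vbeta5, with Valpha2 above overnight control by 0.39 ± 0.23. Atp5pb was dim, with 58.3 and 75.2 in control, 121 and 76.6 in overnight control, 48.4 and 100 in Valpha2, and 126 and 122 in Vbeta5, and Vbeta5 was the highest pair.

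Of the c ring, Atp5g1 and Atp5g2, which encode the same mature protein, were each read by 2 tested probe sets. All 4 had a difference above 0 for overnight control against control, between 0.31 and 0.97, and 0 of the 4 was higher without overlap, where 21.6% of all tested probe sets were. Atp5g2 102134_f_at had 318 and 331.5 in control, 518.5 and 320.4 in overnight control, 356 and 343.5 in Valpha2, and 491 and 437 in Vbeta5, with overnight control array 1 the highest. Among the other membrane subunits, Atp5md had 2674 and 2547 in control, 1592 and 2488 in overnight control, 3235 and 2866 in Valpha2, and 2490.3 and 2102 in Vbeta5. Its Valpha2 pair was the highest of the 8, by 0.61 ± 0.24 over overnight control (limma adjusted p = 1), and overnight control array 1 was the lowest. Atp5mpl had 2020 and 2216 in control, 1955 and 1763 in overnight control, 2612 and 2163 in Valpha2, and 1905.5 and 2196 in Vbeta5, with Valpha2 above overnight control by 0.35 ± 0.21. The bright probe set of Atp5l, 93014_at, lay between 1974 and 2707 with differences from -0.15 to 0.21.

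Probe sets of the same gene did not always give 1 answer. Of the 72 genes, 21 had several probe sets and 12 had at least 2 that were tested. The tested probe sets had the same sign in all 4 comparisons for Ndufb2, Cox4i1 and Cox8b. They differed in sign in at least 1 comparison for Ndufa3, Ndufaf1, Ndufv2, Cyc1, Atp5c1, Atp5d, Atp5g1, Atp5g2 and Atp5l. In several of these genes 1 probe set was dim, and for Cyc1 and Atp5c1 both were bright.

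**Figure D4:**
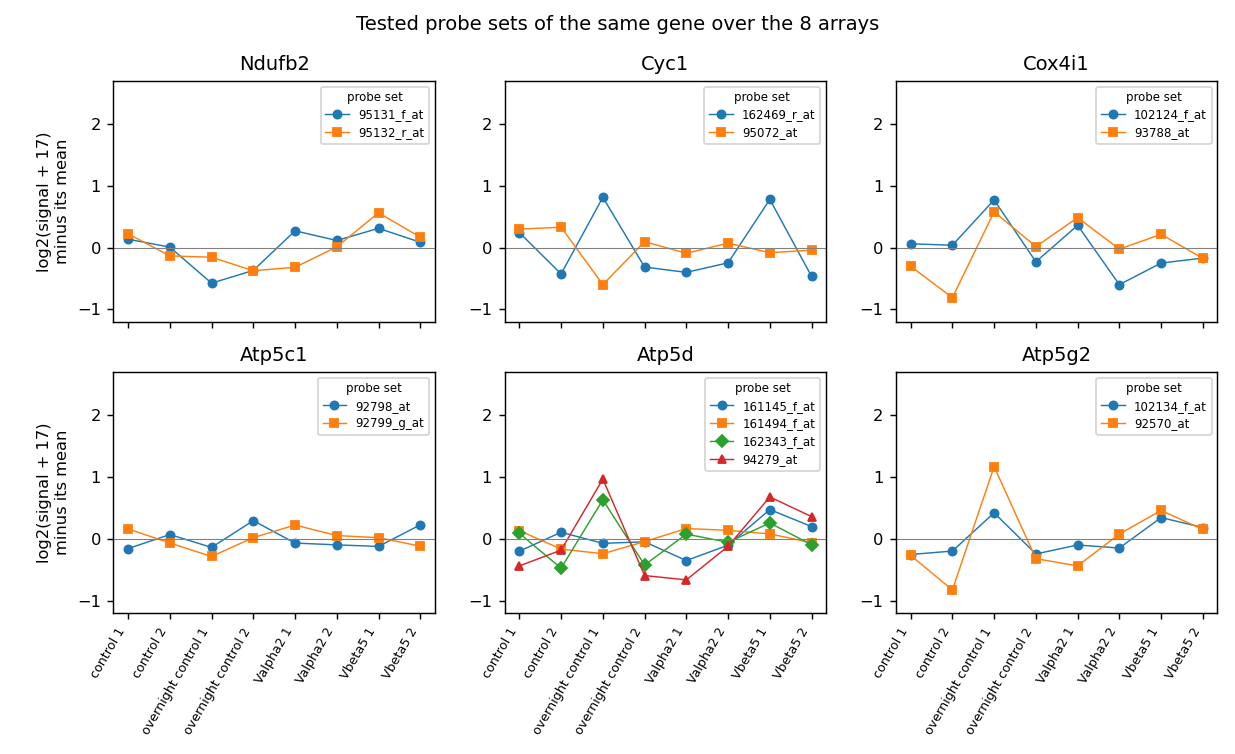
Tested probe sets of 6 genes over the 8 arrays, as log2(signal + 17) minus the probe set's own mean. The lines of Ndufb2 run together apart from overnight control array 1 and Valpha2 array 1, those of Cyc1 part on overnight control array 1, Vbeta5 array 1 and control array 2, and those of Atp5d range over more than 1 log2 unit on overnight control array 1.

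The plot of probe sets of the same gene shows on which arrays they part, overnight control array 1 among them. Cyc1 162469_r_at, both tested probe sets of Atp5g2 and Atp5d 94279_at and 162343_f_at were highest there, while Cyc1 95072_at and Atp5d 161494_f_at were lowest there. Of the 100 members, 23 stayed under a signal of 100 on all 8 arrays and 23 stayed above 1000. The 5 genes with no tested probe set were Ndufa12, Cox5a, Cox7a1, Cox8a and Atp5j2. Cox5a and Cox8a encode subunits of complex IV present in most tissues. Cox5a lay between 3.8 and 81.4 on its 2 probe sets and Cox8a between 5.5 and 49.6.

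**Figure D5:**
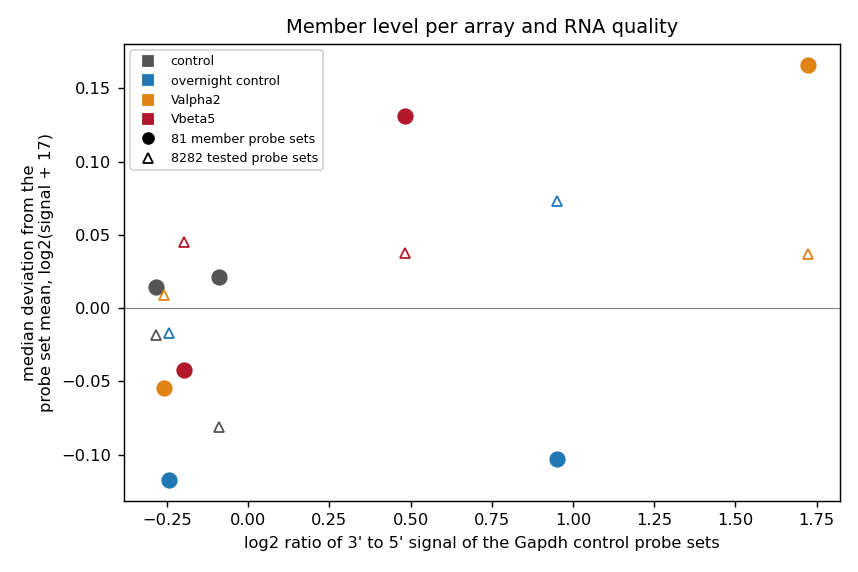
Median deviation per array of the 81 tested members (circles) and of all 8282 tested probe sets (triangles) from the probe set means, in log2(signal + 17), against the Gapdh control ratio (log2, 3′ over 5′ signal); colours are the groups. Among the 3 arrays with a ratio above 0, the members are at 0.17 (Valpha2), 0.13 (Vbeta5) and -0.10 (overnight control).

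The plot of member level against RNA integrity gives the whole set by array. The median deviation of the members was 0.17 on Valpha2 array 1 and 0.13 on Vbeta5 array 1, both with a raised Gapdh ratio, and -0.05 and -0.04 on array 2 of these groups. On the overnight control it was -0.10 on array 1, with a raised ratio, and -0.12 on array 2, without. On the control arrays it was 0.02 and 0.01. The overnight control arrays were the lowest pair for all members pooled. This did not hold for every subset: complex IV was at 0.18 on overnight control array 1, and the brighter members were at -0.08 on array 2 of both the overnight control and Vbeta5. With the Gapdh ratio as a covariate, the median difference of the members was 0.12 for Valpha2 against overnight control (all tested, -0.03). It was 0.10 for Vbeta5 against overnight control (-0.004), -0.0052 for Vbeta5 against Valpha2 (0.04) and -0.13 for overnight control against control (0.09). Beyond these fits and those without arrays, the part of RNA integrity was not tested.

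Other nuclear genes of mitochondrial respiration, from 5 lists that had tested members, gave no call in the 4 comparisons. Among assembly factors and import proteins 0 of 19 genes tested rose and 0 fell, and the same held for 0 of 7 of cytochrome c and the carriers of phosphate and adenine nucleotide, 0 of 15 of the citric acid cycle and pyruvate dehydrogenase, 0 of 59 mitochondrial ribosomal proteins and 0 of 13 genes of mitochondrial gene expression and biogenesis. Of all tested probe sets 0.616% were called for Vbeta5 against overnight control and 0% for Valpha2 against overnight control. The share was 0.278% for Vbeta5 against Valpha2 and 0.181% for overnight control against control. At such shares lists of this size would hold few calls, so the counts of 0 do not set these genes apart. For overnight control against control, the median difference was -0.11 for the mitochondrial ribosomal proteins, -0.10 for the citric acid cycle, -0.07 for assembly and import, -0.02 for gene expression and biogenesis and 0.04 for cytochrome c and the carriers, against 0.10 for all tested. For Valpha2 against overnight control it was 0.21 for assembly and import, 0.13 for the citric acid cycle, 0.08 for the ribosomal proteins, -0.04 for gene expression and biogenesis and -0.06 for cytochrome c and the carriers, against -0.02. The smallest p in these lists was that of Idh2, the mitochondrial isocitrate dehydrogenase that uses NADP, at -1.31 ± 0.26 for Vbeta5 against Valpha2 (limma adjusted p = 0.0775), and Idh2 was at -1.09 ± 0.26 for Vbeta5 against overnight control (adjusted p = 0.119). Its signals averaged 338 in Vbeta5, 847 in Valpha2 and 727 in overnight control, and the Vbeta5 arrays are those with the lower thymocyte marker sum.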

How the data were processed

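The authors deposited 1 table of array intensity values, normalized per the labels by a method the sources used here do not give. Trimmed of 2% at each end, every array averaged 250.14 to 250.16. The 66 control probe sets were left out, and log2(signal + 17), with 17 the 20th percentile of the positive values, went into limma 3.58.1 (R 4.3.3): 1 mean per group, 8 arrays in 1 fit, two-sided tests, variances moderated with a trend on 4 residual plus 6.33 prior degrees of freedom. The steps were tested on simulated data. Detection calls were not used here, and 2 arrays a group limit the precision. Gene names came from the platform annotation (10833 probe sets with 1 symbol, 396 with several, 1193 with none). All 100 members matched a RefSeq table of GRCm38.p6, which also gave the promoters.

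Members and lists were chosen with earlier results of these data known. Named were the members past the threshold, the largest differences by complex and direction, the 2 highest by complex, fixed lists of roles and isoforms, and genes with several probe sets. Alternatives covered normalization, offset, filter, variance trend, array number, the 3′ to 5′ ratio, the choice of probe sets and each array left out; leaving out 3 arrays was added after seeing the data.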

Additional observations from a re-analysis of the deposited data

How the results depend on the processing

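Depth here is signal over background, which limits the dim members most. In 71 of 72 settings 0 members were called. The exception was Uqcr11 for overnight control against control, in the fit without overnight control replicate 2. That fit left 1 array in the group, and its calls over all tested probe sets are given below. Of 40 named differences 28 kept their sign in every setting run, and 255 of 300 complex medians stayed within 1 SD of the main value. This SD is that of the complex's median per array within the 2 groups compared, with 2 arrays each. It is wide where the 2 arrays of a group part, so staying within it is a weak check. The other values were as follows, and the cause was not tested.

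For Vbeta5 against overnight control, the 51 calls over all tested probe sets were 28 at a common median, 0 without the variance trend, 29 with only the 4 arrays compared, 105 with the 3′ to 5′ ratio as a covariate, 206 without the 3 arrays of raised ratio, and 0 to 31 with 1 array left out (0 without Vbeta5 array 2). For Vbeta5 against Valpha2, the 23 calls were 0 at a common median, without the trend and with only the 4 arrays, 43 with the covariate, 68 without the 3 arrays and 0 to 21 with 1 array left out (0 without Valpha2 array 1 or Vbeta5 array 2). For overnight control against control, the 15 calls were 0 without the trend, 35 with only the 4 arrays and with the covariate, 99 without the 3 arrays, and 0 to 120 with 1 array left out (120 without overnight control array 2, 0 without any other of the 4). For Valpha2 against overnight control, calls were 0 to 1 with 1 array left out, and the median of the members was 0.0425 to 0.234.

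The same-numbered arrays correlated in their deviations from the group means at r = 0.105 to 0.345 over all tested probe sets, and the labels do not say what they share. Over the members alone r was 0.112 to 0.461, highest for Vbeta5 with control. With the array number as a block, 124, 90 and 99 probe sets were called for Vbeta5 against overnight control, Vbeta5 against Valpha2 and overnight control against control, and 0 members in each.

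The median of the members for overnight control against control was -0.300 at a common median, -0.058 with quantile normalization, -0.014 with no filter, -0.123 without the dimmest 50%, -0.061 with only the 4 arrays, -0.127 with the covariate, -0.084 without the 3 arrays, -0.123 with 1 probe set per gene, -0.084 with only plain suffixes, -0.094 with only structural subunits, and -0.115 to -0.063 with 1 array left out.

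Signs turned for these members. With 1 array left out, Vbeta5 against overnight control ranged from -0.98 to 0.019 for Cox4i1 102124_f_at and from -0.56 to 0.15 for Atp5k; Valpha2 against overnight control from -0.63 to 1.39 for Cox6a2, -0.33 to 0.032 for Sdha and -1.63 to 0.22 for Atp5l 99678_f_at; Vbeta5 against Valpha2 from -0.071 to 1.04 for Cox6b2 97352_f_at and -0.14 to 1.10 for Cyc1 162469_r_at; and overnight control against control from -0.33 to 0.22 for Sdhd, which was 0.040 after quantile normalization. Cox6a2 was -0.057 for Valpha2 against overnight control with the covariate and -0.21 without overnight control array 2. Without the 3 arrays, Vbeta5 against overnight control was -0.042 for Sdhc, 0.059 for Cox4i1 102124_f_at and 0 for Atp5k. There, Vbeta5 against Valpha2 was -0.13 for Ndufa1, -0.066 for Sdhc, -0.22 for Cyc1 162469_r_at and -0.12 for Cox6b2, and Valpha2 against overnight control was 0.069 for Cyc1 162469_r_at.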
